A study of Homo sapiens with 2 samples.

Results

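The genes described here encode intermediate filament proteins of classes III to V: the neurofilament subunits NEFL, NEFM and NEFH, the related neuronal subunit INA, NES, VIM, DES, PRPH and the lamins LMNA and LMNB1. They were found by their symbol in the platform's annotation, which gave 10 genes of 16583 named genes, measured by 12 of 18188 named array rows. Both arrays held RNA of A375, an established human melanoma cell line. One culture had received a lentivirus that encodes a hairpin RNA directed at BMI1 (shBMI-1). The other had received the empty lentivirus (empty vector), so both had been exposed to virus. The labels do not say which hairpin was used, or whether each culture was a clone or a pool. BMI1 is a subunit of Polycomb repressive complex 1, which keeps developmental genes silent through chromatin. There was a single array per group, so no test between groups was possible and no value has a replicate error. The set was chosen by symbol, and with the intensities and ratios of these same arrays already known, so the values below are descriptions and support nothing further.

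Intermediate filaments are the most durable of the cytoskeletal polymers. All share a central coiled-coil rod and assemble from dimers into ropes without the polarity of actin or microtubules. Class III proteins (VIM, DES, PRPH) can form filaments alone in the cytoplasm, class IV proteins (the neurofilaments and INA) copolymerise in axons, and class V proteins (the lamins) line the inner face of the nuclear envelope. NES is placed in class IV or in a class of its own, depending on the scheme, and needs a partner such as VIM. VIM and NES are commonly expressed by melanomas.

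Values are deposited intensities on a linear scale in arbitrary units, and ratios are shBMI-1 over empty vector on the log2 scale. The median intensity over all 45033 rows was 129.8 with shBMI-1 and 131.2 with the empty vector. The only error these arrays hold is the spread of the ratios of different rows of one gene, pooled in bands of mean intensity and called the row SD here. It can include real differences between transcripts. It holds no variation between cultures or between arrays of one group, and rows of one gene can share sequence. It can therefore understate the error of a ratio. BMI1 had an intensity of 25.8 with shBMI-1 and 68.6 with the empty vector, a log2 ratio of -1.41 at a row SD of 0.80. Both of these are low signals, at percentile 16.7 of the shBMI-1 array and 36.8 of the empty vector array. Of 2477 named genes with a mean intensity of 32 to 64, 128 had a ratio as low as that of BMI1 or lower (5.17%). A gene is called above the brightness limit where it reached an array's median over all rows on 1 array or both, as 8921 of the named genes did. Whether signals below it exceeded background is unknown, because background values were not used here. Levels of different rows are not comparable with each other, since each row has its own probes.

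Of the 10 filament genes, 6 were above the brightness limit: NEFL, NES, VIM, PRPH, LMNA and LMNB1. NEFL, the light neurofilament chain that the other neurofilament subunits need for assembly, alone among these 6 passed 2-fold, and it was higher with shBMI-1. Among all genes above the limit, 6.78% were past 2-fold in either direction, 3.23% being higher and 3.55% lower. PRPH and NES were 1.40-fold and 1.31-fold lower with shBMI-1, and LMNB1 was 1.21-fold higher. The ratios of LMNB1, VIM and LMNA were smaller than 1 row SD. The median log2 ratio of the 6 genes was -0.04, with 2 above 0 and 4 below, against 0.09 over all genes above the limit. Without NEFL the median of the other 5 was -0.07, and their ratios ran from -0.49 to 0.27.

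**Figure D1:**
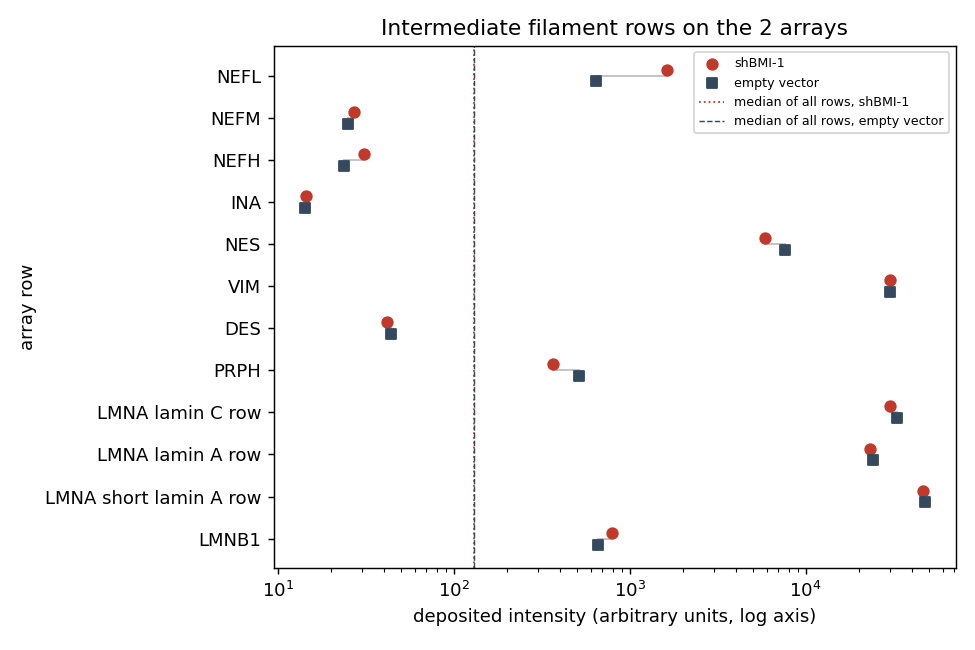
Intensity of each of the 12 rows of the 10 filament genes on the shBMI-1 array (circles) and the empty vector array (squares), 1 value per array on a log axis, with the median of all rows on each array as vertical lines. The NEFL points lie apart (1627 and 646), those of VIM and LMNA nearly coincide at the bright end, and NEFM, NEFH, INA and DES lie under the median on both arrays. Positions along the axis are not comparable between rows.

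Of the neurofilament genes, NEFL alone was above the brightness limit. NEFL was measured by 1 row, with an intensity of 1627 with shBMI-1 and 646 with the empty vector. It was therefore 2.52-fold higher with the hairpin, a log2 ratio of 1.33 at a row SD of 0.25. Its place among the rows of its own array was percentile 87.3 with shBMI-1 and 77.3 with the empty vector. The NEFL ratio was 5.37 row SDs from 0. That is not a measure of significance, because the row SD holds no variation between cultures.

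Large ratios were rare at this level. Of 1203 named genes with a mean intensity of 1024 to 2048, 5 were 2-fold or more above the empty vector with shBMI-1 (0.416%), and 2 had a ratio as high as that of NEFL or higher, NEFL included. The mean intensity of NEFL, 1025, lies at the lower edge of that band. In the next band down, 512 to 1024, 17 of 1552 genes were at least 2-fold higher (1.1%). A total of 3972 genes reached the 75th percentile of the shBMI-1 array and of the empty vector array, and 13 of them had at least 2-fold more signal with the hairpin (0.327%). NEFL had the third highest ratio of these, behind DNMT3L (1.83) and EPS15L1 (1.39). The filament set was chosen with these ratios known, so the ranks describe NEFL and are no test of it.

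How far rows of one gene can lie apart was read from genes with several rows. At mean intensities of 512 to 2048 there were 242 such genes, and the median range between the ratios of their rows was 0.25. In 2 of them (0.826%) the rows lay as far apart as the whole NEFL ratio. NEFL had no other annotated row, so its own value could not be checked in this way. Rows of one gene share the same 2 cultures and arrays. Their spread therefore says nothing of variation between cultures or between arrays of one group.

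NEFM, the medium chain, had an intensity of 27.1 with shBMI-1 and 25.1 with the empty vector. NEFH, the heavy chain, whose tail carries most of the phosphorylation of mature neurofilaments, was at 30.8 with shBMI-1 and 23.9 with the empty vector. INA, alpha-internexin, which precedes the neurofilaments in developing neurons, was at 14.6 with shBMI-1 and 14.2 with the empty vector. All 3 stayed below the brightness limit, at or below percentile 20.6 of their array. Their log2 ratios of 0.11 (NEFM), 0.36 (NEFH) and 0.03 (INA) lay within their row SDs of 0.74, 0.74 and 0.59. NEFM is the nearest protein-coding neighbour of NEFL in the RefSeq gene table, with 0 such genes between them. No limit of detection could be set for NEFM, NEFH or INA, and a difference smaller than these row SDs cannot be told from the spread between rows.

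NES, nestin, a filament protein of neural and muscle progenitors that also regulates the disassembly of VIM filaments, had an intensity of 5853 with shBMI-1 and 7669 with the empty vector. Its log2 ratio was -0.39, or -1.95 in units of the row SD of 0.20. Of the 481 named genes with a mean intensity of 4096 to 8192, 18 had a ratio as low or lower (3.74%), while the median ratio there was 0.07. Rows of one gene can differ by this much: in 15 of 96 genes with several rows at a mean intensity of 4096 or more (15.6%), the rows lay at least as far apart as the size of the NES ratio.

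VIM, vimentin, the class III filament of mesenchymal and many migratory cells, was almost equally bright on both arrays, at 30081 with shBMI-1 and 30225 with the empty vector. The log2 ratio was -0.01 as deposited and 0.01 after each array was centred on its median, with a row SD of 0.20. Both values were at the 99.6th percentile or above, with array maxima of 57881 and 58812. Saturation was not recorded in the files, so whether it limited the ratio was not tested.

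The remaining class III genes were PRPH and DES. PRPH, peripherin, a filament of peripheral and cranial neurons that can join with NEFL, was at 366 with shBMI-1 and 513 with the empty vector, a log2 ratio of -0.49 at a row SD of 0.42. Of 1826 named genes with a mean intensity of 256 to 512, 185 had a ratio as low or lower (10.1%). DES, desmin, the muscle filament that ties myofibrils together at the Z-disc, was at 41.8 with shBMI-1 and 43.8 with the empty vector, below the brightness limit on each array (log2 ratio -0.07, row SD 0.80).

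**Figure D2:**
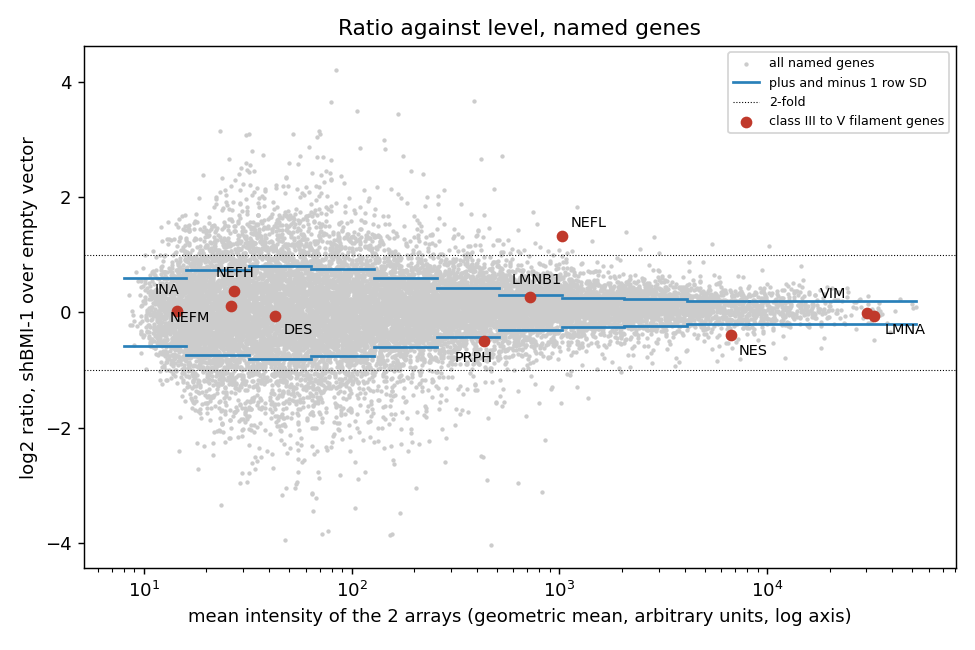
Log2 ratio of shBMI-1 over empty vector against the geometric mean intensity of both arrays (log axis) for all 16583 named genes (grey) and the 10 filament genes (red), with 1 row SD on each side of 0 (blue steps) and 2-fold (dotted). NEFL (1.33) lies far above the blue step at its level, NES (-0.39) and PRPH (-0.49) lie under theirs, and the other 7 lie within them.

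The lamins form the meshwork under the inner nuclear membrane. LMNA encodes lamins A and C by alternative splicing, and was the only filament gene here with several rows, 3 in all. The row for the lamin C transcript (NM_005572) had an intensity of 30106 with shBMI-1 and 32902 with the empty vector. The row for the full-length lamin A transcript (NM_170707) was at 23068 with shBMI-1 and 23992 with the empty vector. The row for a shorter lamin A form (NM_170708) was at 46679 with shBMI-1 and 47367 with the empty vector. Each was slightly lower with shBMI-1, with log2 ratios of -0.13, -0.06 and -0.02, and their mean was -0.07. The SD of the 3 ratios was 0.05, so the 3 rows were closer to each other than is usual for genes of this brightness (pooled row SD 0.20). These transcripts share most of their sequence, so the rows are not independent measurements of separate forms. All values of the 3 rows lay at or above the 99.4th percentile of their array. Whether saturation limited these ratios or their spread was not tested, as for VIM.

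LMNB1, the farnesylated B-type lamin whose loss is widely used as a marker of cellular senescence, had an intensity of 794 with shBMI-1 and 657 with the empty vector. The log2 ratio was 0.27, less than the row SD of 0.30, and 419 of 1552 genes in its band (27.0%) had a ratio as high or higher. LMNB2, the second B-type lamin, which is not among the 10 genes, was at 8145 with shBMI-1 and 6896 with the empty vector, a log2 ratio of 0.24 at a row SD of 0.20. Both B-type lamins thus had ratios above 0 and all 3 LMNA rows ratios below 0, each within 1.20 row SDs.

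The other cytoplasmic filament genes outside the keratins were dim or mixed. BFSP1, filensin, a beaded filament protein of the eye lens, was at 139 with shBMI-1 and 340 with the empty vector. It was 2.45-fold lower (log2 ratio -1.29, row SD 0.60, and -1.05 with a pseudocount of 50). Of 2060 named genes with a mean intensity of 128 to 256, 4.95% were at least 2-fold lower, and 59 (2.86%) had a ratio as low as that of BFSP1 or lower. SYNM, synemin, which joins DES or VIM filaments, was at 211 with shBMI-1 and 155 with the empty vector (0.45, row SD 0.60). GFAP, the astrocyte filament, was at 41.8 with shBMI-1 and 35.5 with the empty vector. BFSP2 was at 37.4 with shBMI-1 and 25.7 with the empty vector, and SYNC, syncoilin, at 56.3 with shBMI-1 and 75.8 with the empty vector. These last 3 were under the brightness limit.

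Keratins, the class I and II filaments of epithelia, were examined as the remaining cytoplasmic filaments. The annotation held 48 genes with a keratin symbol, 19 with a ratio above 0 and 29 below, with a median of -0.15. Of these, 22 were above the brightness limit, 6 with a ratio above 0 and 16 below, with a median of -0.23. KRT4, KRT16, KRT39 and KRT85 reached it on the empty vector array alone, so the limit itself adds ratios below 0. With the limit set on the mean of both arrays, the median of the type II keratins moved from -0.15 to -0.04. That of the type I keratins moved from -0.33 to -0.32. With no limit, the median of the 22 type I keratins measured was 0.03, with 12 ratios above 0 and 10 below. That of the 20 type II keratins measured was then -0.15, with 6 ratios above 0 and 14 below. Over all named genes above the limit, 5349 of 8921 had a ratio above 0. KRT6C, an epidermal keratin, was at 1268 with shBMI-1 and 608 with the empty vector, 2.09-fold higher (log2 ratio 1.06, row SD 0.30). After quantile (0.995) or loess (0.98) normalization it was just short of 2-fold. A further 5 above the limit were at least 2-fold lower. Over all genes above the limit, 3.23% were at least 2-fold higher and 3.55% lower. At the mean intensities of these 5 keratins, the share of named genes as much lower was 2.25% (256 to 512) or 9.55% (64 to 128). KRT83 was at 241 with shBMI-1 and 856 with the empty vector, KRT33A at 147 with shBMI-1 and 473 with the empty vector, and KRT3 at 244 with shBMI-1 and 623 with the empty vector. KRT39 (52.6 with shBMI-1 and 223 with the empty vector) and KRT85 (75.1 with shBMI-1 and 177 with the empty vector) reached the limit on the empty vector array alone, where they were higher. KRT83, KRT33A, KRT39 and KRT85 are keratins of hair, and KRT3 is a keratin of the cornea. With a pseudocount of 50, KRT85 was short of 2-fold (-0.86).

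Among keratins below the limit on each array, KRT12, KRT13, KRT23, KRT27 and KRT40 had ratios from 1.06 to 1.27, all from low signals with row SDs of 0.59 to 0.80. In their bands of mean intensity, 3.5% to 11.7% of named genes were at least 2-fold higher. The other keratins with the largest positive ratios above the limit were KRT76 (0.52), KRT14 (0.42) and KRT5 (0.39), while KRT16 had a ratio of -0.82. KRT6C and KRT33A were outside the lists of type I and type II keratins and were added after their values were seen. The 42 listed keratins measured had a median of -0.10, with 18 ratios above 0 and 24 below. Hair and epithelial keratins have close copies in the genome, so one keratin's signal may include that of another.

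Proteins that bind the filaments were listed next. The 9 plakins and linkers above the brightness limit split into 4 with ratios above 0 and 5 with ratios below, with a median of -0.03, which was 0.11 with the 75th percentile as the limit. PLEC, plectin, which ties VIM filaments to actin and to the nucleus, was at 2041 with shBMI-1 and 2190 with the empty vector (-0.10, row SD 0.23). EPPK1, epiplakin, a keratin-binding plakin, was the only one past 2-fold, at 19.6 with shBMI-1 and 152 with the empty vector, and it reached the limit on the empty vector array alone. Its log2 ratio was -2.95 as deposited and -1.53 with a pseudocount of 50, from 1 row, with a row SD of 0.80. At its mean intensity of 32 to 64, 10.7% of named genes were at least 2-fold lower. The dynein light chain DYNLL1 (0.33), the desmosomal DSP (0.26) and the cornified envelope protein EVPL (-0.30) were short of 2-fold.

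Of 15 nuclear lamina partners above the limit, 10 had a ratio above 0 and 5 below (66.7% above 0, against 60.0% of all genes above the limit). None was past 2-fold, and the median was 0.07 (-0.002 after loess normalization), against 0.09 over all genes. SYNE4, a nesprin that links the nucleus to kinesin, had the lowest ratio (-0.89, row SD 0.42), followed by LBR, the lamin B receptor (-0.50, row SD 0.60). NEMP1, an inner nuclear membrane protein, had the highest (0.88, row SD 0.76), followed by BANF1, which bridges chromatin and the lamina (0.37, row SD 0.20). NEMP1 was at 161 with shBMI-1 and 87.4 with the empty vector. It reached the limit on the shBMI-1 array alone, where it was higher. EMD, emerin, which binds lamin A, was at 3215 with shBMI-1 and 2919 with the empty vector. Of the lamin processing list, which holds enzymes and NARF, 5 genes were above the limit and all 5 had ratios above 0, with a median of 0.19. As most genes above the limit had ratios above 0, that count says little alone. ZMPSTE24, the protease that cuts prelamin A, was 1.81-fold higher (261 with shBMI-1 and 144 with the empty vector, log2 ratio 0.86, row SD 0.60), and NARF, a prelamin A binding protein, had a ratio of 0.42 (row SD 0.25).

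**Figure D3:**
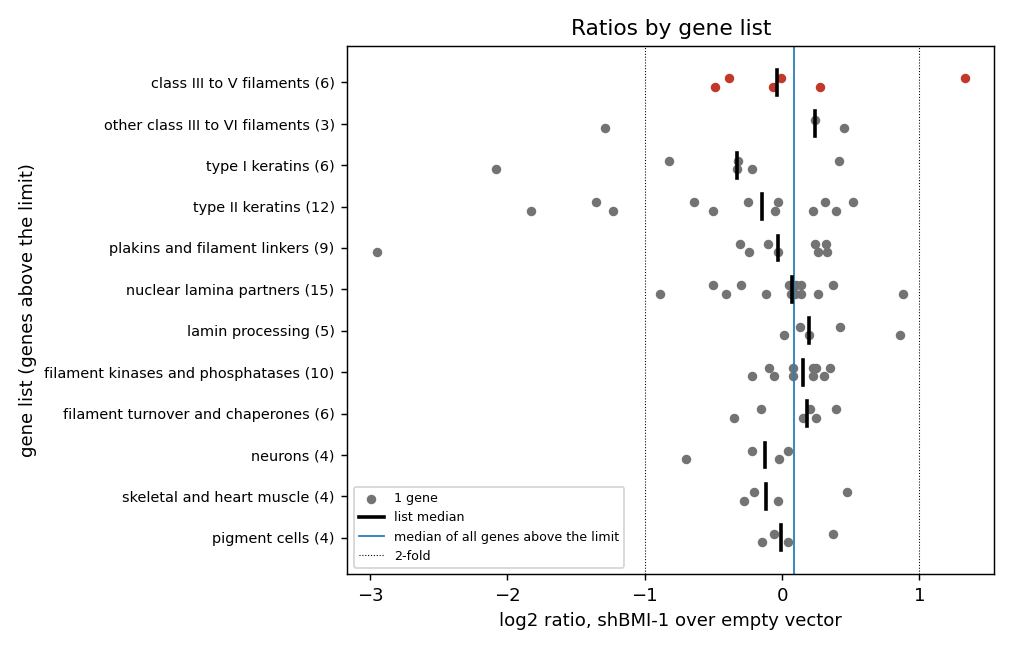
Log2 ratio of shBMI-1 over empty vector for each gene above the brightness limit (1 point per gene, number in brackets) in the filament genes (red) and 11 related lists (grey), with list medians (black bars), the median of all genes above the limit (blue line, 0.09) and 2-fold (dotted). NEFL is the only filament gene beyond a dotted line, and the points beyond the left dotted line are BFSP1, 4 listed keratins and EPPK1.

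The cell type was checked against marker lists because neurofilaments, DES and GFAP mark other tissues. Of 15 measured neuron genes, 4 were above the limit, with 1 ratio above 0 and 3 below, and none was past 2-fold. The synaptic vesicle gene SYP was at 2155 with shBMI-1 and 3505 with the empty vector (-0.70, row SD 0.23), the growth cone gene GAP43 had a ratio of -0.22, and the neuronal RNA-binding gene ELAVL3 one of 0.04 (-0.02 after quantile and -0.03 after loess normalization). TUBB3, a neuronal beta-tubulin that many tumour lines also express, was at 18166 with shBMI-1 and 18472 with the empty vector (-0.02, row SD 0.20). The other 11 measured neuron genes, SNAP25, SYT1, ELAVL4, STMN2, MAP2 and DCX among them, were under the limit on both arrays. From low signals, STMN2 (-1.19, row SD 0.76) and CHGA (-1.90, row SD 0.74) were past 2-fold lower. At the mean intensity of STMN2 (64 to 128) 9.55% of named genes were at least 2-fold lower, and at that of CHGA (16 to 32) 9.38%. The highest ratio among these 11 was that of MAP1B (0.78). The part of the neuron genes in the NEFL ratio was not tested. Among 10 measured pigment cell genes, 4 were above the limit. SOX10, the neural crest lineage factor, was at 6889 with shBMI-1 and 7608 with the empty vector, and S100B was at 1452 with shBMI-1 and 1123 with the empty vector (log2 ratios -0.14 and 0.37). S100A1 had a ratio of -0.06, and ERBB3 one of 0.04 (-0.04 after quantile or loess normalization). The pigmentation genes MITF, PMEL, MLANA, TYR and TYRP1 were under the limit on both arrays. MITF (1.19) and PMEL (1.20) had ratios past 2-fold from low signals, at a row SD of 0.80. At their mean intensity of 32 to 64, 11.7% of named genes were at least 2-fold higher. MLANA (0.04), TYR (-0.07) and TYRP1 (-0.01) had ratios near 0. None of 9 fibroblast genes was above it. Whether a change in cell makeup or in RNA per cell accompanied any ratio cannot be told apart in bulk RNA.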

How the data were processed

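RNA of 2 A375 cultures was measured on 2 single-colour NimbleGen arrays with Cy3-labelled cDNA, per the labels' protocols. The deposited values are 1 linear intensity per row and array. How probes were summarised and whether the arrays were scaled to each other is not given in the sources used here, and no genome build was used. Groups came from the sample titles. The log2 of each intensity was taken as deposited, with no pseudocount, and rows of one symbol were averaged. The brightness limit was an array's median over all rows, to be reached on 1 array or both, and the threshold was 2-fold. With 1 array per group no p-value was computed, and the number of arrays limits the precision.

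The genes and the 12 related lists were chosen with earlier results of these data known; 168 of 184 listed symbols were found. Named were the 10 genes, BMI1, the other class III to VI filaments, and of each further list the 2 highest and 2 lowest ratios above the limit with rows on one side of 0, and any past 2-fold. Other list genes are named as known members, with their values seen; all keratin symbols, and kinases alone, were added after seeing the data. The procedure was tested on simulated data. Python 3.11.15, numpy 2.4.6, pandas 2.3.3, statsmodels 0.14.6 and matplotlib 3.10.9 were used. Alternatives were 3 scalings (median centring, quantile, loess with span 0.3), a pseudocount of 50, the brightest row, other brightness limits, thresholds of 1.5-fold and 3-fold, and means.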

Additional observations from a re-analysis of the deposited data

How the results depend on the processing

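The count of filament genes past the threshold was 1 as deposited and under 9 of 10 alternatives, of which 1 used 1.5-fold. It was 0 at 3-fold, which NEFL does not reach. Of all genes above the limit, 6.78% were past the threshold as deposited, 18.6% at 1.5-fold and 2.38% at 3-fold. The 1 of 6 filament genes past 1.5-fold was thus no more than the share of all genes. That share at 2-fold was 2.16% for a limit at the 75th percentile and 10.9% where no limit was set. The log2 ratio of NEFL ran from 1.25 (loess) to 1.35 (median centring), that of NES from -0.45 to -0.37, of PRPH from -0.56 to -0.44, of LMNB1 from 0.20 to 0.29 and of LMNA from -0.09 to -0.02. That of VIM changed sign under median centring. The median of the filament genes above the limit was -0.04 and ran from -0.07 to 0.11, above 0 as a mean and with no limit. Medians of 6 of the 11 related lists with genes above the limit changed sign under at least 1 alternative; those of the type II keratin, lamin processing, kinase, turnover and muscle lists did not. No paired analysis was possible because each group had 1 array. The 4 filament genes under the limit have no measured detection floor, and no replicate was available to leave out.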

Other observations

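Phosphorylation drives the disassembly of intermediate filaments at mitosis. The list of filament kinases and phosphatases had a median log2 ratio of 0.15 over 10 genes above the brightness limit. Of these, 7 had ratios above 0 (70.0%) and 3 below, and none was past 2-fold. Over all genes above the limit the median was 0.09, 60.0% had a ratio above 0 and 6.78% were past 2-fold. The 9 kinases alone had a median of 0.08, 6 above 0 and 3 below, and the tenth gene was the phosphatase PPP1CA (0.22). CDK1, the mitotic kinase that phosphorylates lamins and VIM, was at 530 with shBMI-1 and 416 with the empty vector (0.35, row SD 0.42). CAMK2G had a ratio of 0.31, while the protein kinase C genes PRKCA and PRKCD had ratios of -0.22 and -0.09. ROCK1 and ROCK2, which phosphorylate VIM at the cleavage furrow, were under the limit on both arrays.

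Chaperones and ligases that keep filaments from aggregating or remove them had a median of 0.18 over 6 genes above the limit. None was past 2-fold, 4 had ratios above 0 (66.7%) and 2 below. All genes above the limit had a median of 0.09, with 60.0% above 0 and 6.78% past 2-fold. Keeping just 1 row per gene, the brightest, lowered the list median to 0.077, against 0.084 over all genes. HSPB1, a small heat shock protein that binds filaments, was at 13848 with shBMI-1 and 10558 with the empty vector (0.39, row SD 0.20). BAG3, a co-chaperone that works with small heat shock proteins, was at 7576 with shBMI-1 and 9633 with the empty vector (-0.35, row SD 0.20). DNAJB2 (0.25 over 2 rows, 0.005 in its brightest row) and HSPB8 (-0.16) were within their row SDs. Of 15 measured muscle genes, 4 were above the limit, with a median of -0.12. The actin genes ACTA1 (24350 with shBMI-1 and 29557 with the empty vector) and ACTC1 (19616 with shBMI-1 and 22602 with the empty vector) have coding sequences close to those of other actins, so these rows may share signal. The muscle creatine kinase gene CKM had a ratio of 0.47 (row SD 0.30), the myogenic factor gene MYOG was at 170 with shBMI-1 and 174 with the empty vector (-0.03, row SD 0.60), and MYOD1 was under the limit on both arrays.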
